A study of Mus musculus with 6 samples.

Results

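The DNA replication and repair genes described here are Mcm3, Mcm6, Orc2, Prim2, Exo1, Bard1, Xrcc5 and Smarcal1, a list of 8 genes chosen by name from a table of 1140 chromosome 1 rows. Other chromosomes, which hold most partners of these genes, were not analysed here. Every member had a single row, and all 8 belonged to the 646 rows that the authors had tested. Total RNA of embryonic mouse retina (E15.5, strain C57BL/6) was sequenced in 6 libraries, each made from a pool of 8 retinas. The T2Isl1 group had 3 libraries of genotype T2Isl1/+, in which Isl1, a LIM-homeodomain transcription factor of retinal ganglion cells, is placed at the Tbr2 (Eomes) locus. The T2fx group had 3 libraries of genotype T2fx/+. The submitters name these retinas wild type, although the label gives them the T2fx allele of Tbr2 in heterozygous form. Both groups thus carry 1 altered and 1 unaltered Tbr2 allele per the labels. The labels do not say how much Tbr2 each altered allele yields, so Tbr2 dose and Isl1 expression cannot be told apart here. Isl1 from the T2Isl1 allele is driven by the Tbr2 locus, so its direct expression is limited to cells that use this locus.

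A retinal progenitor must license its origins, unwind DNA and synthesise primers in each S phase. The origin recognition complex marks origins and recruits the MCM helicase, primase lays down the RNA primers, and fork remodelling and break repair proteins protect the new strands. At this embryonic stage the retina holds dividing progenitors beside newborn neurons that have left the cell cycle, and transcripts of licensing genes are used as markers of the dividing cells. The comparison asks whether the transcript levels of this machinery differed between T2Isl1 and T2fx retinas. In whole retina, fewer dividing cells and less RNA per cell cannot be told apart.

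None of the 8 genes passed the authors' test. Each group has 1 combined value per gene in FPKM (sequenced fragments relative to transcript length and to the size of the library), so no SD over libraries can be given, and library depth is unknown. At a q-value under 0.05, 0 of the 8 members were called in the authors' deposited table, where 1.55% of all tested rows were called (10 of 646, 0.155% higher and 1.39% lower in T2Isl1). No member differed by 1.5-fold or more, against 3.25% of tested rows. At an unadjusted p-value under 0.05 the count was again 0 of 8, against 3.72% of tested rows, and the members' p-values ran from 0.522 to 0.996 in the authors' deposited table. All 8 had a q-value of 0.9997, which 629 of the 646 tested rows shared. Summed over the 8 genes the level was 235 FPKM in T2Isl1 and 236 FPKM in T2fx retinas. The value was above T2fx for 4 members and below it for 4, where 54.6% of tested rows lay above. With summed FPKM of chromosome 1 rows outside the lens list made equal between groups, 2 of the 8 lay above, as did 32.0% of tested rows. The count was 4 with the upper quartile of tested rows made equal and 3 when centred on the median of tested rows.

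Promoters are shown for the 2 most abundant members, Mcm6 and Mcm3, and for the least abundant, Bard1, because these 3, of 6 members with a promoter window, held a recognition word of the E2F factors, which drive S phase genes. RefSeq promoter windows (GRCm38.p6, 250 bases before to 50 after the RefSeq gene start) were matched for 6 of the 8 members, not for Prim2 and Exo1. The windows are chr1:128359656-128359955 for Mcm6, chr1:20820263-20820562 for Mcm3 and chr1:71102923-71103222 for Bard1, all on the minus strand and printed 5′ to 3′ in the direction of transcription. The RefSeq start can differ from the GENCODE position printed for a gene. Most of the Bard1 window lies inside the GENCODE gene, which ends at 71103146. Capitals mark the E2F words.
Mcm6: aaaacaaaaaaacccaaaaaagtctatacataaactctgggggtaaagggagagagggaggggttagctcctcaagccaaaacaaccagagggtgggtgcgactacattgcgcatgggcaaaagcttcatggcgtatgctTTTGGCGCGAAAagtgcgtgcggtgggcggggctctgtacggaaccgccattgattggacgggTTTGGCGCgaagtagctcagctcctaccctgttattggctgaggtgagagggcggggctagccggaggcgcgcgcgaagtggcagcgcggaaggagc
Mcm3: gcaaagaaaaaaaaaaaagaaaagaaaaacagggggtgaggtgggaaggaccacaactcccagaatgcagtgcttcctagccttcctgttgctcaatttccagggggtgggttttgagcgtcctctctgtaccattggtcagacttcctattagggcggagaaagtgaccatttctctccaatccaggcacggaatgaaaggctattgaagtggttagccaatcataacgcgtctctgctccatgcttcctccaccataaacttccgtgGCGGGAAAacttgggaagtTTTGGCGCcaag
Bard1: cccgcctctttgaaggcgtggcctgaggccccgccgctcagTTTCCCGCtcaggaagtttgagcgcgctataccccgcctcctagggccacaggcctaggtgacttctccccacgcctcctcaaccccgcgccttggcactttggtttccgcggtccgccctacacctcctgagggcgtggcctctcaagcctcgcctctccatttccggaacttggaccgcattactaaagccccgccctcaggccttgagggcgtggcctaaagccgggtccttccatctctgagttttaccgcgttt
The words searched, on both strands, were TTTGGCGC, TTTCGCGC, TTTCCCGC and TTTGCCGC. Mcm6 held 3 matches, of which 2 overlap on opposite strands, Mcm3 held 2 and Bard1 held 1. Of 32851 promoter windows of the same length, 2.26% held at least 1 of these words and 0.0974% held 2 or more. These shares cover all windows, whether or not the gene was tested here, and the count among tested rows is given below. The windows of Orc2, Xrcc5 and Smarcal1 held none of these words. A match is a run of letters and was not tested as a binding site.

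Among the 496 tested chromosome 1 rows with a matched promoter, 23 had an E2F word, including the 3 members. Their median log2 fold change was 0.030, against 0.010 for the 473 rows without a word. None of the 23 was called, against 9 of the 473. Their median level was 21.3 FPKM in T2Isl1 and 19.2 FPKM in T2fx retinas, and the rows without a word had medians of 10.5 FPKM in T2Isl1 and 11.0 FPKM in T2fx retinas. Without the 3 members the median log2 fold change of the remaining 20 was 0.040.

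The MCM helicase genes were the most abundant members in both genotypes. Mcm6 (chromosome 1, 128331590 to 128359664, minus strand, mm10, GENCODE M21) encodes a subunit of the hexameric replicative helicase and had 80.5 FPKM in T2Isl1 and 81.5 FPKM in T2fx retinas in the authors' deposited table. Its log2 fold change was -0.018 (p = 0.866, the authors' deposited table). Mcm3 (20802968 to 20820312, minus strand), another subunit of the same ring, had 69.9 FPKM in T2Isl1 and 71.7 FPKM in T2fx retinas in the authors' deposited table (log2 fold change -0.038, p = 0.732). Both values lay slightly below T2fx, by less than the standard errors derived from the deposited statistics. The proportion of the 2 subunits was also similar, with 1.15 Mcm6 per Mcm3 in T2Isl1 and 1.14 in T2fx retinas on the FPKM scale. Mcm6 ranked 38th in both groups among the 646 tested rows, and Mcm3 ranked 45th in T2Isl1 and 47th in T2fx retinas.

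As deposited, the origin and primase genes lay slightly above T2fx without passing the test, and Prim2 lay just below it when the sum outside the lens list was made equal or when centred on genes of like transcript length. Orc2 (58462771 to 58505109, minus strand), a core subunit of the origin recognition complex, had 15.7 FPKM in T2Isl1 and 14.9 FPKM in T2fx retinas in the authors' deposited table, that is, a log2 difference of 0.077 (p = 0.665). Prim2 (33453810 to 33669795, minus strand), the large primase subunit, had 24.6 FPKM in T2Isl1 and 23.5 FPKM in T2fx retinas in the authors' deposited table. Its log2 fold change was 0.065 (p = 0.601, the authors' deposited table), and -0.0079 with summed FPKM outside the lens list made equal. Primase transcripts exceeded those of Orc2 by 1.57-fold in T2Isl1 and 1.58-fold in T2fx retinas. Mcm3 exceeded Prim2 by 2.84-fold in T2Isl1 and 3.05-fold in T2fx retinas, so helicase subunit transcripts outnumbered those of primase and origin in both groups.

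**Figure D1:**
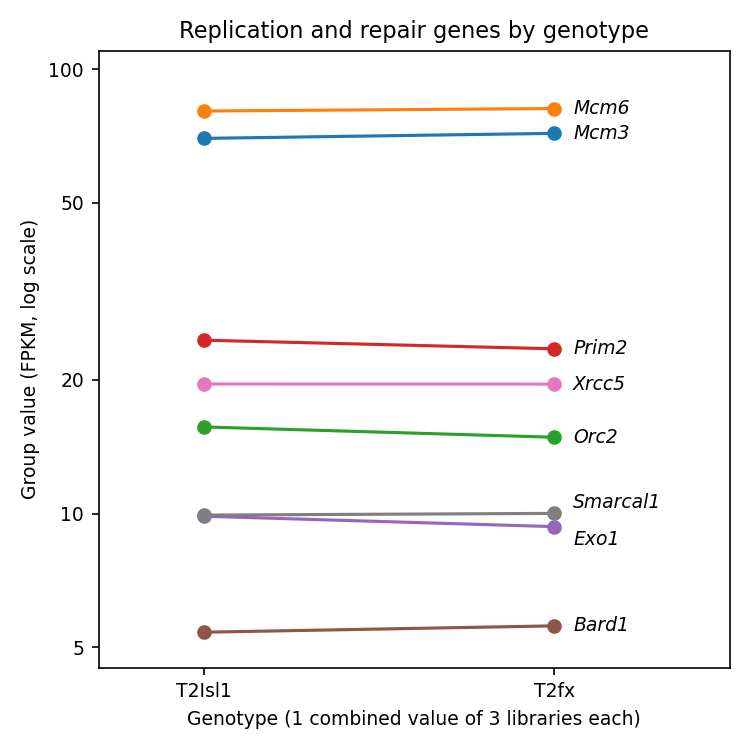
Group values of the 8 members in FPKM on a log axis, with T2Isl1 on the left and T2fx on the right; each point is the authors' combined value of 3 libraries and has no error. The lines are nearly flat, and the order from Mcm6 (80.5 FPKM in T2Isl1, 81.5 FPKM in T2fx) down to Bard1 (5.41 FPKM in T2Isl1, 5.59 FPKM in T2fx) is the same in both groups.

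Fork and break repair genes were less abundant and likewise close to T2fx. Smarcal1 (72583251 to 72633134, plus strand), an annealing helicase that remodels stalled forks, had 9.93 FPKM in T2Isl1 and 10.01 FPKM in T2fx retinas in the authors' deposited table, that is, a log2 difference of -0.013 (p = 0.913). Exo1 (175880581 to 175913489, plus strand), an exonuclease of end resection and mismatch repair, had 9.87 FPKM in T2Isl1 and 9.35 FPKM in T2fx retinas in the authors' deposited table. As deposited, Exo1 had the largest difference of the 8 members, 0.078 on the log2 scale or 5.54% (p = 0.522, the authors' deposited table). With the sum outside the lens list made equal it was 0.0053, and Bard1 was then the most different member at -0.12. Bard1 (71027498 to 71103146, minus strand), the partner of Brca1 in homologous recombination, had 5.41 FPKM in T2Isl1 and 5.59 FPKM in T2fx retinas in the authors' deposited table, that is, a log2 difference of -0.048 (p = 0.733). Xrcc5 (72307421 to 72394952, plus strand) encodes a subunit of the Ku complex that binds broken ends for end joining. Its level was 19.6 FPKM in both T2Isl1 and T2fx retinas in the authors' deposited table (log2 fold change 0.00067, p = 0.996). Xrcc5 was the closest match of the 8 as deposited but not with the equalised sum, where it was -0.072 and Orc2 was closest to zero at 0.0046. Ku transcripts of Xrcc5 thus stood 3.62-fold above those of Bard1 in T2Isl1 and 3.50-fold above them in T2fx retinas.

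The order of levels was the same in both genotypes: Mcm6, Mcm3, Prim2, Xrcc5, Orc2, Smarcal1, Exo1 and Bard1. From highest to lowest the span was 14.9-fold in T2Isl1 and 14.6-fold in T2fx retinas. Smarcal1 and Exo1 were the closest neighbours, 0.0594 FPKM apart in T2Isl1 and 0.664 FPKM apart in T2fx retinas, and without values per library neither gap can be set against a spread.

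The members' differences were within the range common among other genes. As deposited, their log2 fold changes ran from -0.048 to 0.078, with a median of -0.0060, against a median of 0.013 over all 646 tested rows. The median size of the change, regardless of sign, was 0.043 on the log2 scale for the members and 0.088 for all tested rows. All 8 members lay under that overall median of size, and 45.2% of tested rows differed by no more than Exo1, the most different member. Among the 401 tested rows at the members' levels (5.50 to 81.0 FPKM, mean of both groups) the share was 52.6%. The median size over those 401 rows was 0.076, and 6 members lay under it, while Exo1 and Orc2 lay just above. Such small differences were therefore common among genes of this abundance.

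**Figure D2:**
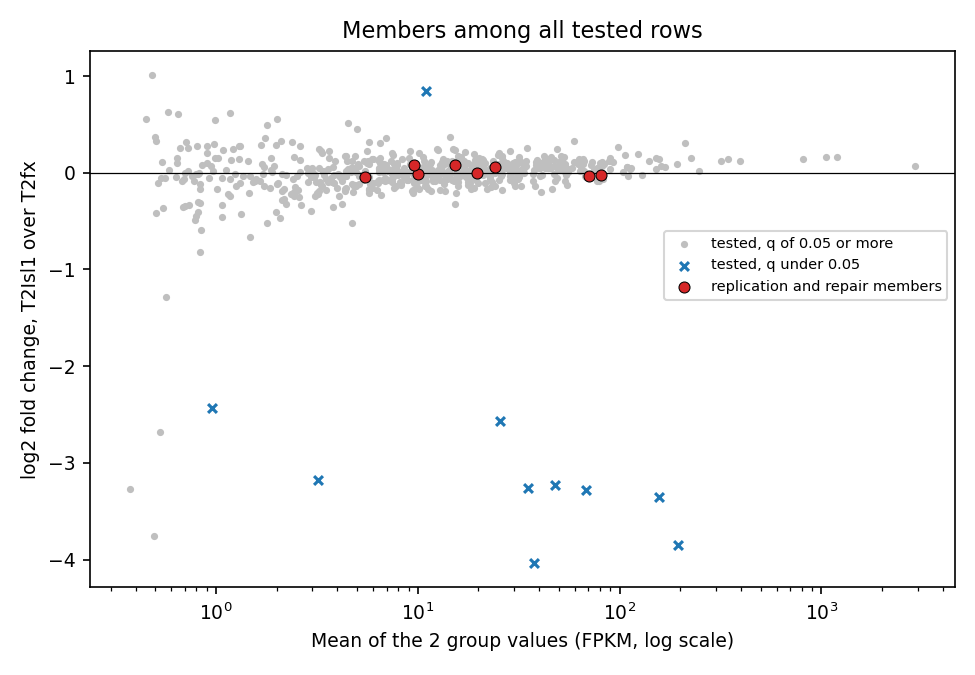
Log2 fold change (T2Isl1 over T2fx) against the mean of the group values in FPKM on a log axis, for all 646 tested rows (grey), the 10 called rows (blue crosses) and the 8 members (red). The members sit along zero between -0.048 and 0.078, in the dense band of the other rows.

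The deposited statistics give an indirect error for each member. If the authors' test statistic is read as the log2 fold change divided by its standard error, the members' standard errors were 0.19 to 0.30 on the log2 scale. The corresponding 95% intervals ran at the widest from 0.696-fold for Bard1 to 1.59-fold for Orc2. The authors' p-values closely followed the order of that statistic across the 646 tested rows, but corresponded to standard errors smaller by a median factor of 1.74. On that narrower reading the standard errors were 0.11 to 0.18, and the intervals spanned at the widest 0.800-fold for Bard1 and 1.34-fold for Orc2. The sources used here do not say how the statistic was built, so both readings are shown. For Mcm3 the intervals were 0.749-fold to 1.27-fold on the wider reading and 0.839-fold to 1.13-fold on the narrower, and for Mcm6 they were 0.760-fold to 1.28-fold and 0.851-fold to 1.15-fold. Differences of that size in either direction are thus compatible with these values, and the missed threshold does not show equal levels. Among tested rows of at least 5 FPKM, the smallest difference with an unadjusted p-value under 0.05 was 1.18-fold and the smallest with a q-value under 0.05 was 1.79-fold in the authors' deposited table.

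**Figure D3:**
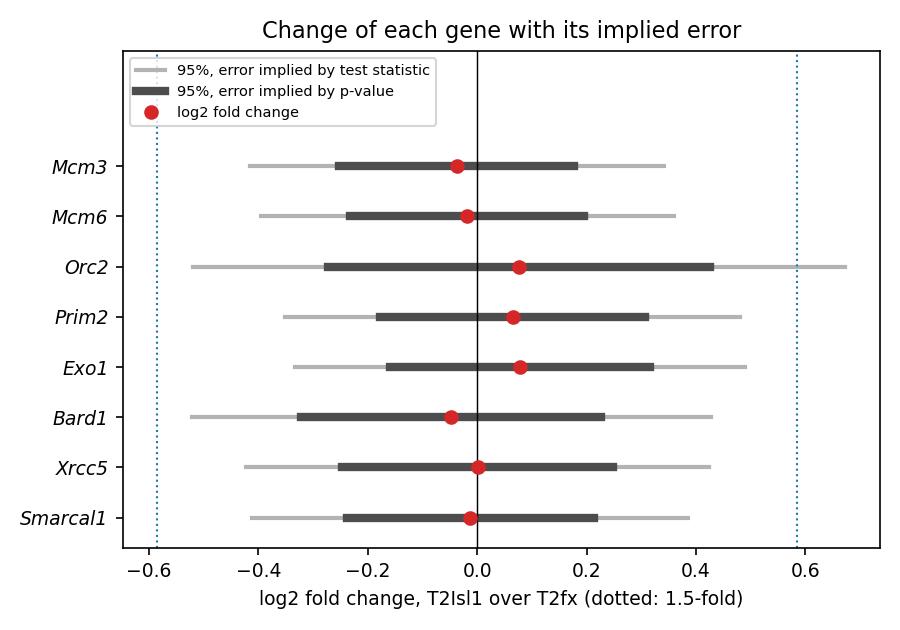
Log2 fold change (T2Isl1 over T2fx) of each member (red point) with 95% intervals from the error implied by the authors' test statistic (light grey) and by their p-value (dark grey); dotted lines mark 1.5-fold. Every interval spans zero, and the widest, for Orc2, reaches 1.59-fold.

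Other replication, repair and damage signalling genes also had no call. Of 171 such genes listed by role beside the members, 13 had a tested row, 7 above and 6 below T2fx, and 0 were called in the authors' deposited table. None of the 13 had an unadjusted p-value under 0.05, against 3.72% of tested rows, and their median log2 fold change was 0.0042. Parp1, which senses DNA breaks, was the most abundant, with 80.8 FPKM in T2Isl1 and 84.4 FPKM in T2fx retinas (log2 fold change -0.064, the authors' deposited table). Nhej1, the end joining factor that stabilises the ligation complex, had the largest difference, with 5.78 FPKM in T2Isl1 and 4.22 FPKM in T2fx retinas in the authors' deposited table. That is a log2 fold change of 0.45 (p = 0.0946, the authors' deposited table), with a wider-reading interval of -0.47 to 1.37. Zranb3, an annealing helicase related to Smarcal1, had 6.46 FPKM in T2Isl1 and 6.44 FPKM in T2fx retinas in the authors' deposited table. Ube2t, the ubiquitin-conjugating enzyme of crosslink repair, had 14.3 FPKM in T2Isl1 and 13.3 FPKM in T2fx retinas, and the single-strand binding gene Nabp1 had 5.93 FPKM in T2Isl1 and 5.56 FPKM in T2fx retinas in the authors' deposited table.

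Of the 4 tested genes of excision, mismatch and translesion repair, 3 lay below T2fx as deposited and none was called. Among all tested rows 45.4% lay below and 1.55% were called. Pms1, a mismatch repair gene, had 4.70 FPKM in T2Isl1 and 5.12 FPKM in T2fx retinas in the authors' deposited table. The nucleotide excision endonuclease Ercc5 had 8.08 FPKM in T2Isl1 and 8.18 FPKM in T2fx retinas, and the translesion polymerase Rev1 had 9.53 FPKM in T2Isl1 and 9.26 FPKM in T2fx retinas in the authors' deposited table. Each of these differences was smaller than that of Nhej1. In the damage signalling group, Mdm4, an inhibitor of p53, had 12.5 FPKM in T2Isl1 and 13.2 FPKM in T2fx retinas in the authors' deposited table. The log2 fold changes of the other 4 genes of that group ran from -0.034 for Ino80d to 0.11 for Uchl5, with Usp37 and Terf1 between them, in the authors' deposited table. Mcmdc2, an MCM-domain gene known from meiosis, was not tested and had 0.138 FPKM in T2Isl1 and 0.191 FPKM in T2fx retinas in the authors' deposited table.

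Mitotic and cell cycle genes on the chromosome also had no call. Of 42 listed, 8 were tested, 5 above and 3 below T2fx, with a median log2 fold change of 0.022 and 0 called in the authors' deposited table. Nek2, a centrosomal kinase of mitosis, had 28.6 FPKM in T2Isl1 and 26.7 FPKM in T2fx retinas in the authors' deposited table. The spindle gene Aspm had 7.39 FPKM in T2Isl1 and 8.14 FPKM in T2fx retinas, and the mitotic kinesin gene Kif14 had 3.04 FPKM in T2Isl1 and 3.45 FPKM in T2fx retinas in the authors' deposited table. These 2 had the lowest log2 fold changes of the group, -0.14 and -0.18, and the authors' deposited table gives p-values of 0.223 and 0.184. The purine synthesis gene Atic had 40.9 FPKM in T2Isl1 and 41.6 FPKM in T2fx retinas in the authors' deposited table. The remaining 4, Cenpl, Cspp1, Nsl1 and Sgol2a, had log2 fold changes of 0.017 to 0.13 in the authors' deposited table.

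**Figure D4:**
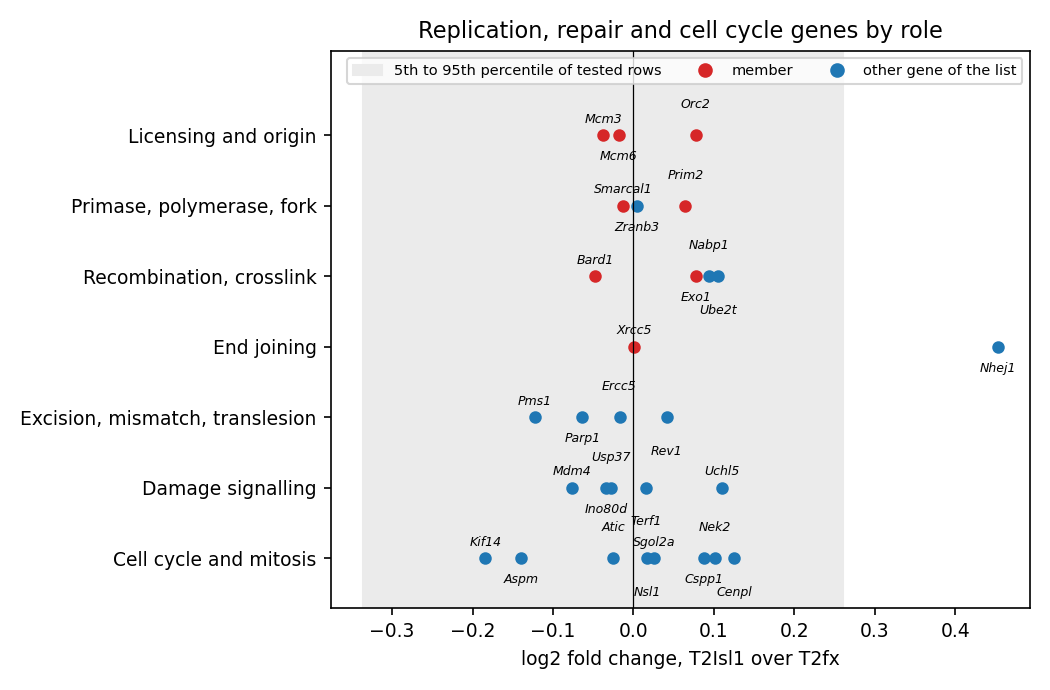
Log2 fold change (T2Isl1 over T2fx) of each tested gene by role, with members in red, other listed genes in blue and the range from the 5th to the 95th percentile of tested rows shaded (-0.34 to 0.26). Nhej1, at 0.45, lies outside the shaded range, and it was not called.

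Bard1, Xrcc5 and Smarcal1 lie within 1605637 bases of each other. The 7 other tested rows of that stretch had log2 fold changes from -0.20 to 0.29 in the authors' deposited table. None of the 7 was called, against 1.55% of all tested rows. Shared sequence bears on 3 members. Orc2 shares its table locus with Nif3l1 and Ppil3, and its longest coding transcript shares 686 identical bases with Nif3l1, which runs on the opposite strand, so without strand information reads there could belong to either gene. Nif3l1 had 17.2 FPKM in T2Isl1 and 16.6 FPKM in T2fx retinas in the authors' deposited table. Mcm6 shares a stretch of 182 bases at 95.6% identity with Gm15654. Exo1 shares stretches of at most 159 bases with 4 other genes, and no other member had a match of at least 150 bases at 95% identity.

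Lens transcripts were lower in T2Isl1 retinas in the same comparison, in which no member was called. All 7 tested genes of the lens list were called lower. Summed over 8 rows of that list, the level was 93.6 FPKM in T2Isl1 and 1038 FPKM in T2fx retinas in the authors' deposited table. FPKM values are shares of each whole library, while the sum outside the lens list covers chromosome 1 rows only. Abundant rows weigh most in it, among them Ptma with 3005 FPKM in T2Isl1 and 2856 FPKM in T2fx retinas. Equalising that sum shifted every log2 fold change by -0.072, and the part of lens RNA in this shift was not tested. The shift was smaller when the upper quartile of tested rows was made equal, 0.0089, or when centred on their median, -0.013. Summed levels were 29.3 FPKM in T2Isl1 and 38.6 FPKM in T2fx retinas for 7 vascular and mesenchymal rows, and 1.47 FPKM in T2Isl1 and 4.24 FPKM in T2fx retinas for 9 muscle rows, in the authors' deposited table. In both of these lists 1 gene was called lower, and the summed levels do not show how far it differed. Of the 6 tested vascular and mesenchymal genes, 5 lay below T2fx and 1, Cd34, lay above it. The vascular genes Cd34 and Rgs5 had log2 fold changes of 0.044 and -0.072, and the matrix genes Col5a2 and Fn1 had -0.52 and -0.17. Twist2 had a log2 fold change of -3.27 at low levels, 0.070 FPKM in T2Isl1 and 0.677 FPKM in T2fx retinas (q = 0.623, the authors' deposited table). Col6a3 was not tested and had 0.066 FPKM in T2Isl1 and 0.444 FPKM in T2fx retinas. The collagen gene Col3a1 had 0.637 FPKM in T2Isl1 and 5.76 FPKM in T2fx retinas, and the muscle receptor gene Chrng had 0.2997 FPKM in T2Isl1 and 1.62 FPKM in T2fx retinas (q = 0.0116 for both, the authors' deposited table). For 2 erythroid rows, none of them called, the sums were 44.3 FPKM in T2Isl1 and 41.1 FPKM in T2fx retinas in the authors' deposited table. The part of other tissues in the members' values was not tested. Of the 24 listed retinal progenitor and neurogenic genes only Fzd5, Hes6 and Btg2 had a row here, and all 3 were tested. The authors' deposited table gives them log2 fold changes of -0.038, 0.12 and 0.069 with 0 calls, where 1.55% of all tested rows were called.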

How the data were processed

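RNA of 6 retinal libraries had been sequenced on Illumina instruments. Reads were handled with CASAVA, TopHat2 (version 2.1.1) and Cufflinks (version 2.1.1) on build mm10, per the submitters' processing notes, which give no order. The deposited table holds 1 value per gene and group, read as FPKM because the authors name Cufflinks, with the libraries already combined by the authors. The authors' log2 fold change is T2Isl1 over T2fx without a pseudocount, per the file headers, and it matched the ratio of the values to within 1.06e-05. Each row also holds the authors' test statistic, a signed score, and their p-value and q-value, per the file headers. The annotation used for counting and any strand setting are not given in the sources used here.

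Only chromosome 1 rows were used here, 1140 complete rows of which 646 were tested by the authors, and 1 incomplete row was left out. Genes were called at an authors' q-value under 0.05. No new test was run, since no values per library were used. Standard errors were derived from the deposited statistic and from the p-value. Gene positions and transcript lengths came from GENCODE M21 (mm10), promoters from RefSeq, and shared sequence from blastn 2.17.0 on GENCODE transcripts. Printed gene positions are those of GENCODE, since a table locus can join several genes. Tables were handled with Python 3.11.15 and pandas 2.3.3. Named genes were all 8 members and every tested gene of the replication, repair, damage signalling and cell cycle lists. Members, gene lists and E2F words were chosen with earlier results of these data known. Alternatives covered scaling, centring, pseudocounts, a floor of 5 FPKM and other call rules. The labels do not say whether pools shared litters.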

Additional observations from a re-analysis of the deposited data

How the results depend on the processing

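The count of called members was 0 under every call rule tried: the authors' q-value, their unadjusted p-value, adjustment over the rows analysed, a 1.5-fold minimum and a floor of 5 FPKM. The median log2 fold change of the members, -0.0060, ran from -0.078 to 0.013 over its alternatives. The number of members above T2fx was 4 as deposited, 4 with the upper quartile of tested rows made equal and 3 when centred on their median. It was 2 with summed FPKM outside the lens list made equal. It was also 2 when centred on genes of like transcript length, an alternative chosen after seeing the data. For it, the 611 tested rows with a transcript length were split into 5 groups by length. Their median log2 fold change fell from 0.098 in the shortest group to -0.080 in the longest, and the cause was not tested. Prim2 turned to -0.0079 with the equalised sum and -0.034 with length centring. Xrcc5 turned to -0.072 with the equalised sum, -0.013 when centred on the median of tested rows and -0.045 with length centring. The other 43 values of single members kept their sign, but several moved by more than 1.5 times. With the equalised sum Mcm3 was -0.11, Mcm6 -0.091, Smarcal1 -0.085, Bard1 -0.12, Exo1 0.0053 and Orc2 0.0046, so the order of the members by size of difference was not kept. With length centring Exo1 was 0.16, Mcm3 -0.083, Mcm6 -0.058, Smarcal1 -0.058 and Orc2 0.038. These sign changes are set by the size of each shift, since the values lie near zero. Leaving out a library could not be tried on combined values, and library depth, which sets the precision, is unknown. No paired analysis was possible, since the labels give no pairing of T2Isl1 with T2fx pools and the values used were already combined by group.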
